A study of Rattus norvegicus with 6 samples.

Results

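The 9 genes described here are 7 annexins (Anxa1 to Anxa7) and 2 S100 genes (S100a10 and S100b), chosen by name with the log2 fold changes between these same fibrinogen and control arrays already known. All 9 were measured, among 13355 genes tested. The cells were primary rat oligodendrocyte progenitor cells (OPCs), dividing glial cells that give rise to myelin-making oligodendrocytes, taken from pups at postnatal day 1 to 2. They had recovered for 2 days in medium with PDGF and NT3 before treatment. The fibrinogen group, 3 arrays, received fibrinogen (the clotting protein of blood plasma) for 48 h in differentiation medium; the control group, 3 arrays, is labelled unstimulated with the same 48 h, and its medium is not stated. The series title asks whether fibrinogen activates BMP signaling in these cells. Nothing in the labels says that the 3 arrays of a group came from separate cultures, so the errors and p-values below measure only the spread between these arrays.

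Annexins are cytosolic proteins that bind acidic phospholipids at the inner face of membranes when calcium rises. S100 proteins are small calcium sensors that work as dimers, and several of them bind the N-terminal tail of an annexin. The best known pair is annexin A2 with S100A10 (also called p11), an S100 protein that has lost its response to calcium: an S100A10 dimer bridges annexin A2 molecules, and the complex holds ion channels, plasminogen and tissue plasminogen activator at the cell surface. S100B is used as a marker of astrocytes and is also found in oligodendrocyte lineage cells.

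S100a10 and Anxa6 rose with fibrinogen by close to the same amount, 2.06-fold and 1.99-fold, while Anxa2, the partner gene of S100a10, stood 1.03-fold above control with overlapping groups. In the fit over all genes, 2 of the 9 members passed the adjusted threshold of 0.05 and both were higher, against 7.16% of all genes in either direction, 4.16% higher and 3.00% lower. No member passed downward in limma, also at an unadjusted p under 0.05, at which 1249 of the 13355 genes were lower. Since these genes were chosen with this comparison known, the counts and changes of the 9 are a description and are given without p-values. The members' median log2 fold change was 0.043, against 0.003 over all genes tested.

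The upstream sequence of 7 of the 9 members was found in RefSeq (build GRCr8); S100a10 and Anxa6 had no entry. That of Anxa2 is shown because its transcript did not pass the threshold while that of its partner rose. It is the 250 bases before the annotated start, chr8:78986002-78986251 on the + strand, with matches to the motifs searched in capitals:
Anxa2: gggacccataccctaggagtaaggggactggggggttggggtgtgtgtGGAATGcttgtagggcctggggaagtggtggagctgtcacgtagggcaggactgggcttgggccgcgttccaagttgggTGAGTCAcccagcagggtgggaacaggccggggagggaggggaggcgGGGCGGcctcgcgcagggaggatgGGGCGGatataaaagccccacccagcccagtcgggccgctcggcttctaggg
The capitals mark, from 5′ to 3′, one match to GGAATG (the TEAD motif), one to TGANTCA (AP-1) and a pair of matches to GGGCGG (the GC box), starting 202, 123, 76 and 52 bases before the start. Both strands were searched, and the matches do not overlap. In windows of the same length, 12.1% of 33469 promoters in the table hold the TEAD motif, 6.34% the AP-1 motif and 30.5% the GC box. The TEAD motif was also found upstream of Anxa1, and the GC box upstream of Anxa3, Anxa4 and Anxa5. GGCGCC, a GC-rich SMAD-binding element found in 8.69% of the promoters, was in none of the 7 members' windows. These matches describe letters and not bound sites.

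**Figure D1:**
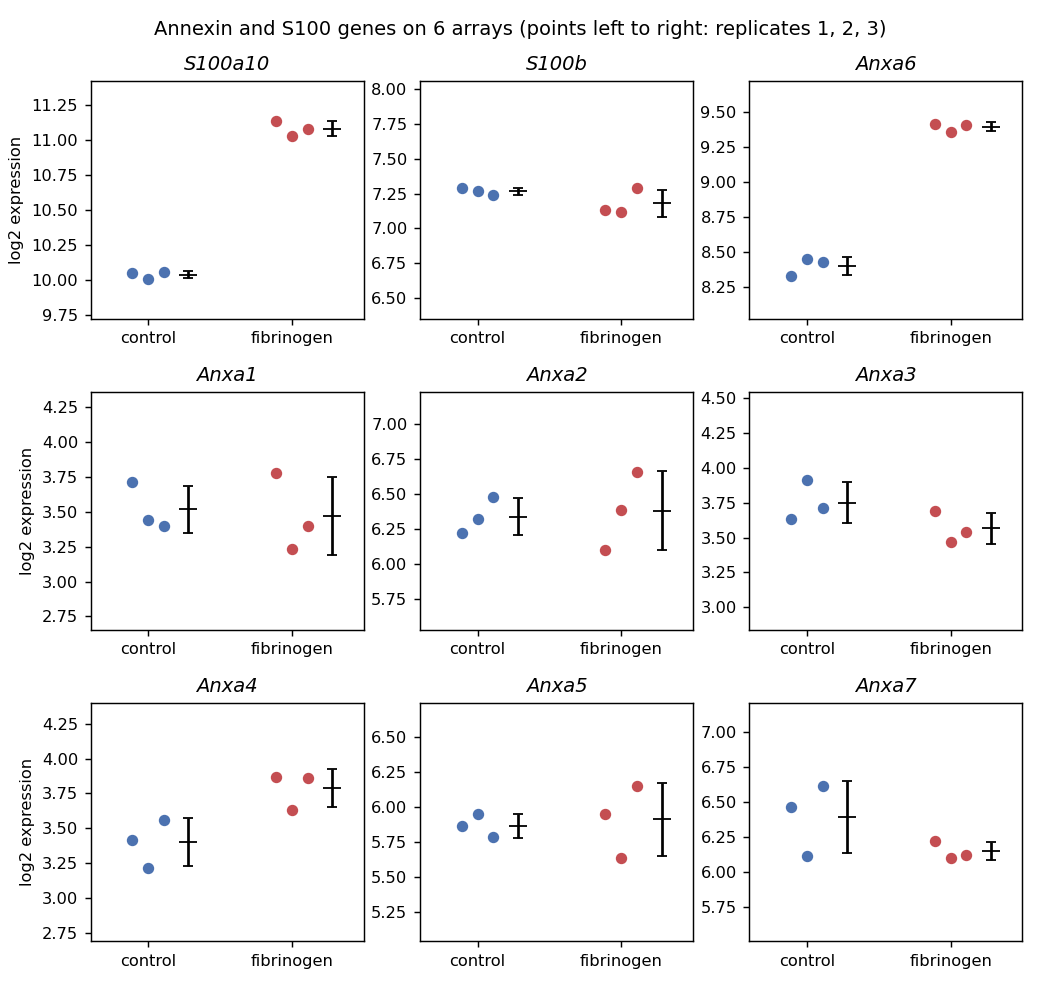
Log2 expression of the 9 genes (vertical axes, all spanning the same log2 range) on 3 control arrays (blue) and 3 fibrinogen arrays (red), with the group mean and SD in black. S100a10 and Anxa6 are separated between groups by 0.97 and 0.91 on the log2 scale, Anxa4 by 0.07, and the other 6 genes overlap.

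S100a10 changed the most of the 9 genes. Its log2 expression was 10.05, 10.01 and 10.06 on control arrays 1 to 3 and 11.14, 11.03 and 11.08 on fibrinogen arrays 1 to 3. All fibrinogen arrays lay above all control arrays, with a gap of 0.97 between the nearest values. The means were 10.04 ± 0.03 and 11.08 ± 0.06 (SD, n = 3), a log2 fold change of 1.04 (SE 0.07, 95% interval 0.88 to 1.21), which ranks 31st from the top among the 13355 genes. Its place past the threshold held in all 14 alternative settings, and the change stayed between 0.97 and 1.07.

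S100b did not follow. It was at 7.29, 7.27 and 7.24 in control and at 7.13, 7.12 and 7.29 with fibrinogen, so that fibrinogen array 3 reached the highest control value. It changed by -0.087 on the log2 scale (SE 0.08, 95% interval -0.27 to 0.10), short of the threshold. Against 4.16% of all genes called higher, 4 of 7 other measured astrocyte markers passed on the same arrays, all upward. They were Gfap (an intermediate filament gene) at 1.00, Slc1a2 at 0.84, Slc1a3 at 0.61 and Fgfr3 at 0.51. Aqp4 (a water channel gene) at -0.24, Gja1 (a gap junction gene) at -0.10 and Aldoc (an aldolase gene) at 0.04 did not pass.

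Anxa2 encodes the annexin that S100A10 binds. Its log2 expression was 6.22, 6.32 and 6.48 on the control arrays and 6.10, 6.39 and 6.66 on the fibrinogen arrays, so the lowest and the highest of the 6 values were both from fibrinogen arrays. The means were 6.34 ± 0.13 and 6.38 ± 0.28 (SD, n = 3), a log2 fold change of 0.043 (SE 0.15, 95% interval -0.31 to 0.39), and the sign turned when arrays were centred on their medians (-0.033) and with quantile normalization (-0.033).

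Within each array, the difference between S100a10 and Anxa2 (the log2 ratio of their signals) was 3.83, 3.69 and 3.58 in control and 5.04, 4.64 and 4.42 with fibrinogen. It moved from 3.70 ± 0.13 to 4.70 ± 0.31 (SD, n = 3), without overlap. The size of such a difference on any 1 array depends on the probes and is not a ratio of molecules, and its shift between groups restates the difference of the fold changes above, array by array. Likewise, S100a10 minus S100b moved from 2.77 ± 0.04 to 3.90 ± 0.11 (SD, n = 3).

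Anxa6 encodes the largest annexin, whose core of annexin repeats is duplicated, and which acts in endocytosis and the distribution of cholesterol. Its log2 expression was 8.33, 8.45 and 8.43 in control and 9.42, 9.36 and 9.41 with fibrinogen. The groups were 0.91 apart at their nearest values, and the 3 fibrinogen arrays differed by less than the control arrays did. The means were 8.40 ± 0.06 and 9.40 ± 0.03 (SD, n = 3), a log2 fold change of 0.99 (SE 0.07, 95% interval 0.82 to 1.16), ranked 39th from the top. It too was past the threshold in all 14 alternatives, with changes from 0.92 to 1.02.

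S100a10 and Anxa6 kept nearly the same distance from each other on all arrays. Their within-array difference was 1.72, 1.56 and 1.63 in control and 1.72, 1.67 and 1.67 with fibrinogen, a shift of 0.05 between groups that overlapped. Against each of the other 7 members, the within-array differences of S100a10 and of Anxa6 were higher on every fibrinogen array than on every control array. The smallest of these shifts were those against Anxa4, 0.66 for S100a10 and 0.61 for Anxa6, and the largest those against Anxa7, 1.29 and 1.24. As above, each shift restates a difference of fold changes, in genes chosen with those changes known.

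**Figure D2:**
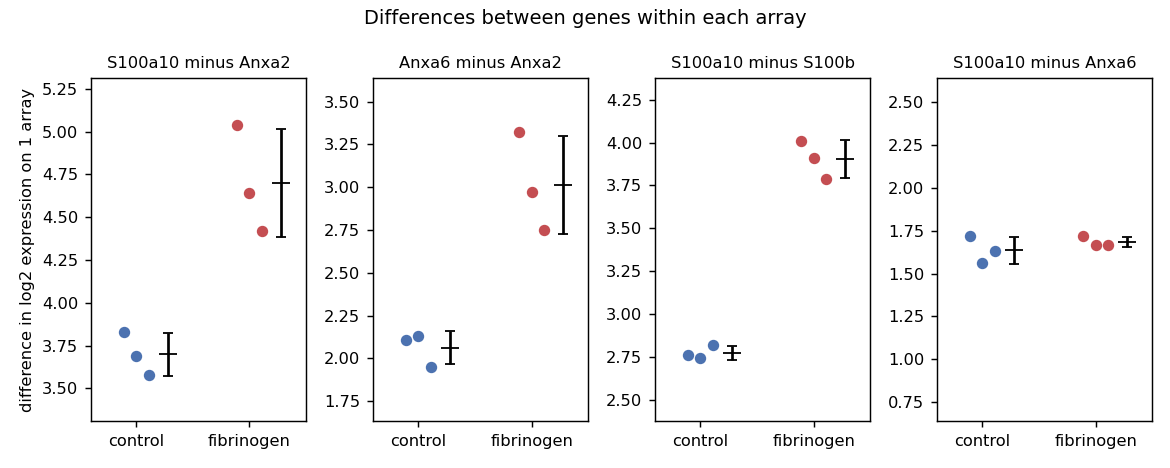
Differences in log2 expression between pairs of genes measured on the same array (vertical axes spanning equal log2 ranges), for 3 control (blue) and 3 fibrinogen (red) arrays, with mean and SD in black. S100a10 minus Anxa2, Anxa6 minus Anxa2 and S100a10 minus S100b are higher on every fibrinogen array, whereas S100a10 minus Anxa6 shifts by 0.05 and overlaps.

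Anxa4, an annexin of epithelial and secretory membranes, was the only other member whose groups did not overlap. It stood at 3.42, 3.22 and 3.56 in control and at 3.87, 3.63 and 3.86 with fibrinogen, with 0.07 between the nearest values. The log2 fold change of 0.39 (SE 0.12, 95% interval 0.12 to 0.66) did not pass the threshold over all genes, here or in any of the 12 alternatives that kept the gene. Counting S100a10 and Anxa6, 3 of the 9 members had fibrinogen above control without overlap, against 15.0% of all genes, and none lay wholly below, against 12.0%. In either direction the groups of 27.0% of all genes did not overlap.

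Anxa1 encodes an annexin induced by glucocorticoids that acts on formyl peptide receptors and limits inflammation. It was at 3.71, 3.44 and 3.40 in control and 3.78, 3.23 and 3.40 with fibrinogen, and the fibrinogen values enclosed the control values. It changed by -0.047 on the log2 scale (95% interval -0.41 to 0.32), and by 0.014 with quantile normalization. Anxa3, found with neutrophil granules, was at 3.63, 3.91 and 3.71 in control and 3.69, 3.47 and 3.54 with fibrinogen. Its difference was -0.18 on the log2 scale (95% interval -0.42 to 0.06), with 1 fibrinogen array inside the control range. The control means of Anxa1, Anxa3 and Anxa4 lay below the median control array value of 5.80 over all probe sets. No detection call accompanies the values, so it is unknown whether these 3 signals lie above background.

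Anxa5, the phosphatidylserine-binding annexin used to stain dying cells, was at 5.86, 5.95 and 5.78 in control and 5.95, 5.63 and 6.15 with fibrinogen. The fibrinogen arrays again enclosed all control values. Its change was 0.047 on the log2 scale (95% interval -0.27 to 0.37), with the sign turned by centring (-0.03) and by quantile normalization (-0.023). Anxa7 (synexin), which binds the calcium sensor sorcin, was at 6.46, 6.11 and 6.61 in control and 6.22, 6.10 and 6.12 with fibrinogen. Control array 2 lay within the fibrinogen range, and the change was -0.25 on the log2 scale (95% interval -0.56 to 0.06). For the 7 members that did not pass, log2 fold changes ran from -0.25 to 0.39, and these intervals do not show that the genes were unchanged.

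**Figure D3:**
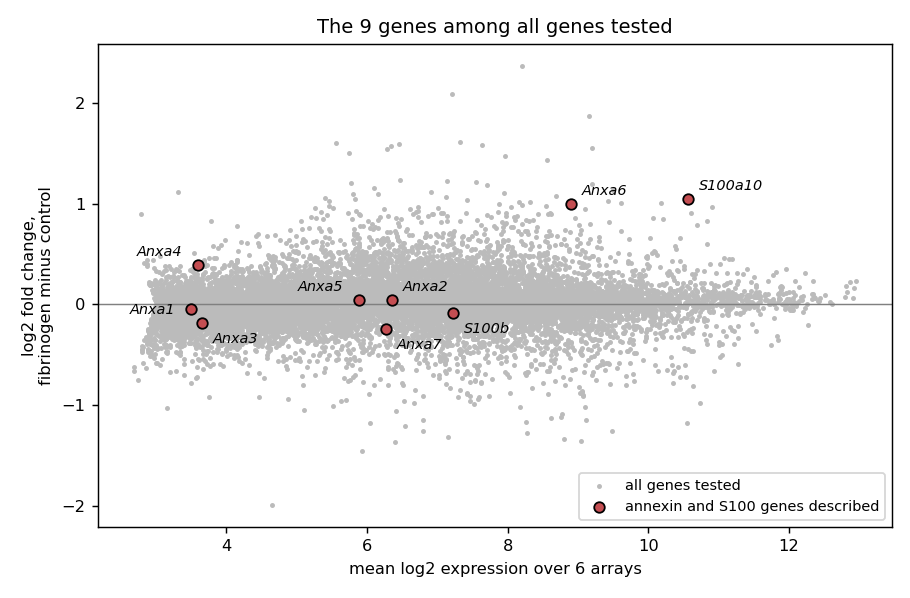
Log2 fold change, fibrinogen minus control (vertical axis), against mean log2 expression over the 6 arrays (horizontal axis) for the 13355 genes tested (grey), with the 9 annexin and S100 genes in red. S100a10 and Anxa6 lie near 1 among brightly measured genes, and the other 7 lie between -0.25 and 0.39.

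Among the 14 other measured genes of both families, 1 rose and 1 fell, against 4.16% of all genes higher and 3.00% lower. Of 5 other annexins listed, 3 were measured and none passed in limma (at an unadjusted p under 0.05, 1 was lower). Anxa11, which binds RNA granules and the protein ALG-2, stood at 5.91, 6.12 and 5.76 in control and 5.50, 5.58 and 5.56 with fibrinogen. All its fibrinogen arrays lay below its control arrays. Its log2 fold change of -0.38 (SE 0.10, limma adjusted p = 0.0766) passed with arrays centred on their medians (adjusted p = 0.0310), with quantile normalization (adjusted p = 0.0436) and without the dimmest 25% of genes (adjusted p = 0.0446). Over its 13 alternatives its adjusted p ran from 0.0310 to 0.215. Anxa8 was at -0.17 on the log2 scale (95% interval -0.60 to 0.25), and at 0.0083 without control 1.

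Of 15 other S100 genes listed, 11 were measured, 1 rose, 1 fell and 9 did not pass, and 4 of the 11 changes were positive (median log2 fold change -0.12). S100a16, a broadly expressed S100 gene, was at 5.88, 5.92 and 6.09 in control and 6.42, 6.60 and 6.82 with fibrinogen. Its groups did not overlap, and its rise of 0.65 on the log2 scale (SE 0.12, limma adjusted p = 0.0224) lost its call when control 1 or 2 or fibrinogen 2 or 3 was left out (adjusted p up to 0.0784). An ordinary test without moderation gave an adjusted p of 0.101. S100a5, a dim S100 gene, fell by 0.56 on the log2 scale (limma adjusted p = 0.0446), from 3.98 ± 0.16 to 3.42 ± 0.20 (SD, n = 3). Removing any single array ended that call (adjusted p up to 0.129, without fibrinogen 3), as did quantile normalization (0.0933). It also ended with the unmoderated test (0.153) and with the replicate number as a block (0.134). Over 12 alternatives its adjusted p ran from 0.0204 to 0.153.

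S100a11, another annexin-binding S100 gene, lies next to S100a10 in the RefSeq gene order and is the only one measured among the 3 genes on each side. It stood at 6.90, 6.42 and 6.61 in control and at 7.47, 6.47 and 7.68 with fibrinogen. Fibrinogen array 2 lay within the control range and the other fibrinogen arrays above it. The log2 fold change of 0.56 had an SE of 0.30 and did not pass (limma adjusted p = 0.357); without fibrinogen 2 it was 0.93 and passed (adjusted p = 0.0412). S100a11 has 4 probe sets, with log2 fold changes of 0.56, 0.30, 0.28 and 0.25, and whether the dimmer ones read copies of the gene was not tested.

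S100a4 and S100a6, calcium-binding S100 genes of motile and proliferating cells, were at -0.44 and 0.41 on the log2 scale (limma adjusted p = 0.149 and 0.441). S100a6 was at 4.56 on control array 2 against 5.40 and 5.68 on the others, and its log2 fold change was 0.08 without that array. S100a1 and S100a13 were at -0.19 and -0.12 (limma adjusted p = 0.503 and 0.705).

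**Figure D4:**
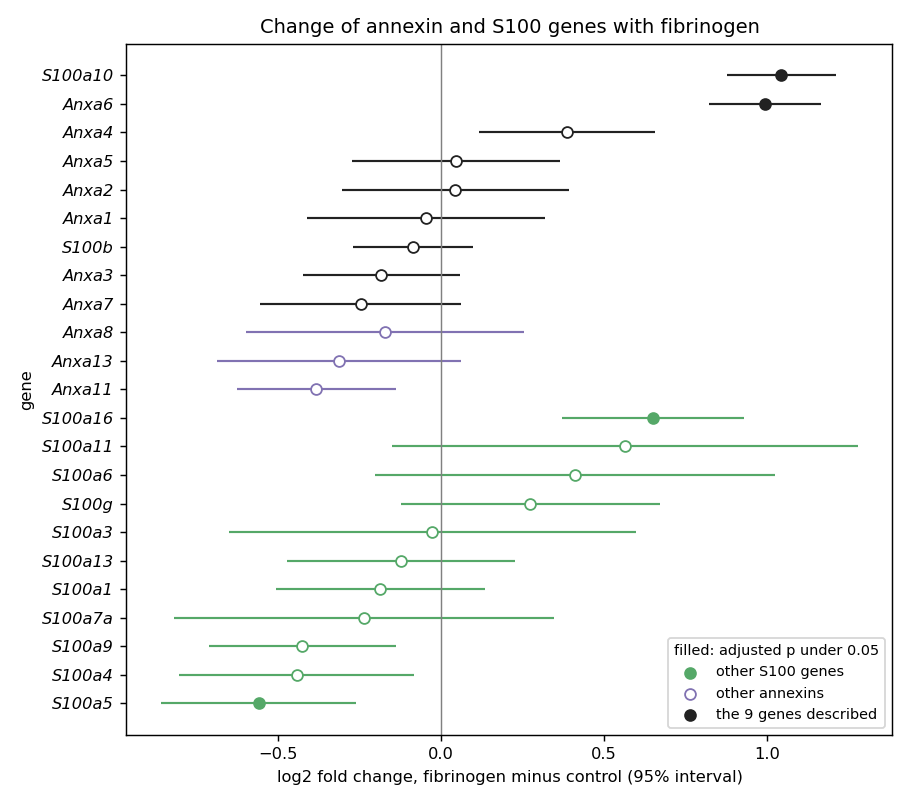
Log2 fold change, fibrinogen minus control (horizontal axis), with its 95% interval from limma for the 9 genes described (black), 3 other annexins (purple) and 11 other S100 genes (green). Filled points passed an adjusted p of 0.05: S100a10, Anxa6 and S100a16 upward and S100a5 downward.

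Genes that work with the annexin A2 and S100A10 complex were taken from a list of 18, of which 15 were measured: 2 rose, 2 fell and 11 did not pass (median log2 fold change 0.10). Of all genes, 7.16% passed, and this list too was chosen with earlier results of these data known. Plat, which encodes the tissue plasminogen activator that the complex binds, was at 6.25, 6.68 and 6.42 in control and 7.12, 6.91 and 6.99 with fibrinogen, without overlap. It rose by 0.56 on the log2 scale (SE 0.12, limma adjusted p = 0.0411). Removing any single array except control 2 ended that call (adjusted p up to 0.141, when fibrinogen 1 was left out). It also ended with the unmoderated test (adjusted p = 0.142) and with the replicate number as a block (limma adjusted p = 0.119).

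Dlc1, whose product binds S100A10, fell from 6.61 ± 0.12 to 5.97 ± 0.09 (SD, n = 3), by 0.64 on the log2 scale (limma adjusted p = 0.00910), and kept its call whichever single array was left out (adjusted p up to 0.0462). Hltf, a chromatin remodeler that the complex binds in neurons, rose by 0.37, and Htr1b, a serotonin receptor that S100A10 brings to the cell surface, fell by 0.47 on the log2 scale (limma adjusted p = 0.0464 for both). Removing any single array ended both calls (adjusted p up to 0.149 and 0.150). That of Hltf also ended with centred arrays (adjusted p = 0.0834) and with quantile normalization (adjusted p = 0.0571). The unmoderated test and the replicate number as a block each ended the calls of both Hltf and Htr1b. The genes of plasminogen (Plg), its receptor Plgrkt, urokinase (Plau) and the urokinase receptor (Plaur), named after seeing their values, had log2 fold changes of 0.15, 0.33, 0.10 and 0.31, none past the threshold.

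None of 13 measured genes of calcium-dependent membrane repair, a process in which annexins act, passed in limma (at an unadjusted p under 0.05, 1 was higher and 1 lower). Those with the smallest p were Pdcd6 (ALG-2, a partner of annexins A7 and A11) at -0.25 and the calpain gene Capn2 at 0.24 on the log2 scale (adjusted p = 0.100 and 0.235). None of 8 measured receptors and intracellular targets of annexin A1 and S100 proteins passed either (1 lower at an unadjusted p under 0.05): Fpr1, a formyl peptide receptor, was at -0.39 and Ager, the S100B receptor RAGE, at 0.14 (adjusted p = 0.134 and 0.412). Over all 13355 genes, 7.16% passed, so none passing in lists this short is near that share. At an unadjusted p under 0.05, 1566 of all genes were higher and 1249 lower.

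Of 8 glucocorticoid response genes, listed because Anxa1 is one such gene, 2 rose, 1 fell and 5 did not pass. Of all genes, 7.16% passed, and the list was chosen with earlier results of these data known. Fkbp5, a co-chaperone of the glucocorticoid receptor, and Klf9, a transcription factor, rose by 0.41 and 0.37 on the log2 scale (limma adjusted p = 0.0365 and 0.0490), and Sgk1, a kinase, fell by 0.44 (adjusted p = 0.0151). Removing any single array ended the calls of Fkbp5 and Klf9 (adjusted p up to 0.112 and 0.159), as did centring (0.0577 and 0.0812). The call of Sgk1 ended when control 3 or any of the fibrinogen arrays was left out (adjusted p up to 0.0680). With the replicate number as a block, the calls of Fkbp5, Klf9 and Sgk1 all ended (limma adjusted p = 0.0994, 0.137 and 0.0781). The unmoderated test also ended those of Fkbp5 and Klf9 (adjusted p = 0.0833 and 0.0980).

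Markers of some cell types that such a culture could hold also changed, upward for astrocytes and OPCs and downward for mature oligodendrocytes. Over all genes, 4.16% were called higher and 3.00% lower. Of 7 measured astrocyte markers, 4 rose (Gfap, Slc1a2, Slc1a3 and Fgfr3) and Aqp4, Gja1 and Aldoc did not pass, and the mean log2 level of the list was 8.07 to 8.15 in control and 8.46 to 8.52 with fibrinogen. Of 7 OPC markers, all measured above the median control array value, 4 rose (C1ql1, Cspg4, Pdgfra and Olig1) and 3 did not pass (Ptprz1 at 0.27, Gpr17 at -0.14 and Sox10 at -0.09 on the log2 scale), with a list mean of 9.89 to 9.96 in control and 10.26 to 10.30 with fibrinogen. Of 8 markers of mature oligodendrocytes, 4 fell (Mag, Cldn11, Cnp and Mbp), and the list mean went from 8.41 to 8.44 in control to 8.08 to 8.13. The part of these shifts in the rise of S100a10 and Anxa6 was not tested, and in a bulk sample a different number of cells of a type and a different amount of RNA per cell cannot be told apart.

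Other markers were dimmer: 10 of 11 microglia, 6 of 7 pericyte and fibroblast, all 5 endothelial and 3 of 4 Schwann cell markers lay below the median control array value. In these lists 1 gene passed, Itgam, which fell by 0.60 on the log2 scale. The list means in control and with fibrinogen were 4.39 to 4.53 and 4.30 to 4.34 for microglia, 4.67 to 4.83 and 4.59 to 4.67 for pericytes and fibroblasts, 3.80 to 4.05 and 3.71 to 4.01 for endothelium, and 5.05 to 5.36 and 5.09 to 5.31 for Schwann cells. Neuron markers were brighter, with 1 of 8 below the median control array value. Elavl4 and Stmn2 rose by 0.90 and 0.38 on the log2 scale, and 5 did not pass. Syt1 fell by 1.16, a larger change than that of any of the 9 members. Among the marker calls, removing any single array ended those of Cnp, Mbp and Stmn2 (limma adjusted p up to 0.143, 0.156 and 0.108), and any except control 1 that of Itgam (0.122). Leaving out fibrinogen 1 or 3 ended those of Olig1 and Fgfr3 (up to 0.0560 and 0.0547), and leaving out fibrinogen 1 those of Pdgfra and Cldn11 (0.0504 and 0.0532). The replicate number as a block ended every one of these calls. The unmoderated test ended those of Cnp, Mbp and Itgam. Centring and quantile normalization each ended that of Stmn2, and the mean of all probe sets that of Mbp.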

How the data were processed

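RNA of 6 samples was amplified with a NuGEN kit, biotin-labelled and hybridised to Affymetrix rat gene arrays, per the labels' protocols. The deposited values are log2 expression per probe set, which the authors normalized between arrays (array medians 5.78 to 5.84); the submitters' processing notes name RMA and limma, and their versions and settings are not given in the sources used here. RMA can compress large changes of dim probe sets. Of 26312 probe rows, 23631 had a value on every array, and 14083 of these have 1 gene symbol in the platform's annotation; a gene was represented by its probe set with the highest mean, which gave 13355 genes. Each of the 9 members has 1 such probe set.

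The groups were compared by limma 3.58.1 under R 4.3.3, using lmFit and eBayes without covariates and two-sided tests, with Benjamini-Hochberg adjustment over all 13355 genes and a threshold of 0.05, which 956 genes (7.16%) passed. Fold changes are fibrinogen over control, SE is the moderated standard error, and intervals are 95%. With 3 arrays a group, precision is limited: the median SE was 0.10. The model was tested on simulated data. The members, the context lists and the marker lists were chosen with earlier results of these data known. Genes named were all members, set genes of both families, and of each other list the members past the threshold (up to 4, or 2 with the smallest p where none passed). Alternatives were 2 other scalings, 2 filters on dim genes, the mean of all probe sets, the unmoderated test, an intensity trend, the replicate number as a block, and each array left out. It is not known whether replicate numbers pair the arrays. The correlations of same-numbered arrays' deviations from their group means were 0.02, -0.10 and -0.05. These correlations, over all probe sets with a value on every array, gave no sign of pairing but cannot exclude it. Neighbours and upstream sequences came from RefSeq tables of GRCr8; the array files' own build is not given in the sources used here.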

Additional observations from a re-analysis of the deposited data

How the results depend on the processing

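S100a10 and Anxa6 stayed past the threshold, with a positive change, in all 14 alternatives run, and the other 7 members passed in none of those that kept them; 2 members higher and 0 lower were counted throughout, also with each array left out (2 to 2 and 0 to 0). The sign of the log2 fold change turned with quantile normalization for Anxa1 (0.014), Anxa2 (-0.033) and Anxa5 (-0.023), with centring for Anxa2 (-0.033) and Anxa5 (-0.03), and with 1 array left out for Anxa1 (range -0.20 to 0.073), Anxa2 (-0.095 to 0.185), Anxa5 (-0.073 to 0.187) and Anxa8 (-0.32 to 0.0083); none of these changes passed. Anxa1, Anxa3 and Anxa4 drop out with either filter on dim genes, and Anxa5 and Anxa7 with the stricter.

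Genes called in all numbered 956, against 1456 without genes below the median level (6678 genes tested), 500 with the unmoderated test, 1639 with an intensity trend, and 358 to 592 with 1 array left out. With the replicate block 343 were called, and the 2 member calls held. Whether the replicate numbers pair the arrays is not known. Other annexins and S100 genes called numbered 2, S100a16 and S100a5, against 3 with centring, which added Anxa11 (limma adjusted p = 0.0310). Quantile normalization and leaving out the dimmest 25% of genes also gave 2, but these were S100a16 and Anxa11. The count was 0 without genes below the median level, a filter that removes S100a16, S100a5 and Anxa11. It was 0 with the unmoderated test, 1 with the replicate block (S100a16) and 0 to 1 with 1 array left out. Why the counts fell with the unmoderated test and the block was not tested. Centring each array lowered the log2 fold change of every gene by the same amount, and the median over all genes to -0.073, from 0.003. The sign turns of Anxa2 and Anxa5 with centring reflect this common shift. No detection call accompanies the values, so how far dim signals lie above background is unknown.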

Other observations

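Values of genes beside the members in the RefSeq gene order belong to none of the lists above, S100a11 apart. Of 54 neighbours, 3 on each side of each member, 31 were measured, 2 were higher and 1 was lower in limma. Over all genes, 4.16% were higher and 3.00% lower. The 3 neighbours called, chosen after their values were seen, were Mrps16 (a mitochondrial ribosomal protein gene) and Dnajc9 (a histone co-chaperone gene) beside Anxa7, at 0.43 and 0.35 on the log2 scale (adjusted p = 0.0311 and 0.0453), and Bmp2k (a kinase gene) beside Anxa3, at -0.44 (adjusted p = 0.0228). Removing any single array ended the calls of Mrps16 and Dnajc9 (adjusted p up to 0.111 and 0.148), and any except control 1 that of Bmp2k (up to 0.0900). Centring the arrays also ended that of Dnajc9 (adjusted p = 0.0699). The unmoderated test and the replicate number as a block each ended the calls of Mrps16, Dnajc9 and Bmp2k. Beside Anxa2, Foxb1, Bnip2 and Gtf2a2 were at 0.03, -0.02 and -0.11 and did not pass. The 4 measured neighbours of Anxa6, Gpx3, Tnip1, Ccdc69 and Gm2a, ran from -0.21 to 0.22 and did not pass.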
